A study of Homo sapiens with 6 samples.

Results

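The 39 genes described here carry out or control the display of peptides by HLA molecules. They were chosen by symbol, as every class I and class II HLA symbol in the expression table (21 genes, antisense symbols left out) together with 18 named genes: the light chain *B2M*, the peptide transporters and editors, the immunoproteasome, both transactivators, and the ligands *MICA*, *MICB* and *CD274*. They are 39 of 20824 genes in the table. The gene annotation used placed 27 of them on chromosome 6 and gave no position for *HLA-DRB3*. RNA-Seq was run on 3 lines made from 21NT, a human breast epithelial line used as a model of ductal carcinoma in situ. One line carried an empty pcDNA3.1 vector (EV), and the other lines overexpressed TBX3 isoform 1 (TBX3iso1) or isoform 2 (TBX3iso2) from the same vector. TBX3 is a T-box transcription factor whose isoforms arise by alternative splicing of one gene. All 3 lines were kept in serum-containing medium with insulin, EGF and hydrocortisone under G418 selection, and the labels name no interferon treatment. Each line was a pool of stable transfectants sequenced as 2 libraries. The sources do not say whether the 2 libraries came from separate cultures, so p-values cover only the spread between these libraries, and a difference between transfected pools cannot be told apart from an effect of the insert.

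HLA class I molecules consist of a polymorphic heavy chain and the light chain beta-2-microglobulin, and they present peptides from the cell interior to CD8+ T cells. The peptides are cut by the proteasome, carried into the endoplasmic reticulum by the TAP transporter and fitted by tapasin. Class II molecules pair an alpha with a beta chain, travel with the invariant chain CD74 and present peptides from endosomes to CD4+ T cells. They are typical of professional antigen-presenting cells, but epithelial and tumour cells can express them too. NLRC5 is the transactivator of class I genes and CIITA that of class II genes.

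*TBX3* itself was measured at 8.52 and 8.24 RPKM (the read number scaled to transcript length and to library size) in the EV libraries, at 13.1 and 11.4 RPKM in TBX3iso1 and at 17.5 and 15.5 RPKM in TBX3iso2. The log2 fold changes were 0.54 (adjusted p = 0.00378, limma) and 0.97 (adjusted p = 0.000257, limma), so that TBX3iso1 lay under the 1.5-fold threshold used below, and the table does not separate the isoforms. Library totals ranged from 43176600 to 54512400 alignments. All 6 epithelial markers were abundant in every library, with *EPCAM* between 165 and 232 RPKM. Their summed level was 2670 to 2770 RPKM in EV, 2100 to 2290 in TBX3iso1 and 2350 to 2590 in TBX3iso2. In both TBX3iso2 libraries *KRT19*, *CDH1* and *ERBB2* were below both EV libraries, *EPCAM* and *KRT18* were above, and *KRT8* overlapped. Of 10 leukocyte markers 8 were in the table and 6 of these averaged under 0.1 RPKM. *PTPRC*, which encodes the pan-leukocyte protein CD45, did not exceed 0.0102 RPKM. The other leukocyte markers, *CD14* and *CSF1R*, were present, and the summed level of the 8 was 11.5 to 12.9 RPKM in EV, 3.96 to 4.49 in TBX3iso1 and 3.73 to 3.9 in TBX3iso2. Of 6 fibroblast markers 5 averaged under 1 RPKM, and their sum, mostly *COL1A1*, was 4.6 to 4.86 RPKM in EV, 8.12 to 8.69 in TBX3iso1 and 7.14 to 7.58 in TBX3iso2. The part of these marker shifts in the results below was not tested.

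The called class I genes were lower than in EV and the called class II genes higher. Genes not called did not all follow this split. *TAP2* of class I lay above EV with TBX3iso1 (log2 fold change 0.53), and *HLA-DOB* of class II lay below EV with TBX3iso2 (-0.39). With TBX3iso2, *NLRC5*, *HLA-B*, *HLA-F*, *TAPBP* and *TAPBPL* fell, and *CIITA*, *CD74*, *HLA-DRA*, *HLA-DPA1*, *MICB* and *CD274* rose. With TBX3iso1, *NLRC5* fell, and *HLA-DRA*, *HLA-DPA1* and *CD274* rose. A gene was called changed at a Benjamini-Hochberg adjusted p under 0.05 over 12805 genes and a change over 1.5-fold, in limma on log2(RPKM + 0.1). Of the 39 genes, 27 entered the test with a mean of 0.5 RPKM or more, and 12 were too low. Against EV, 4 of the 27 (14.8%) were called with TBX3iso1, where 21.5% of all genes tested were called, and 11 (40.7%) with TBX3iso2, where 21.2% were called. The TBX3iso1 share was under that of all genes, but 6 of 27 (22.2%) were called after either rescaling, beside 21.1% of all genes with median-ratio scaling and 20.1% with quantile normalization. The TBX3iso2 share was above that of all genes, and neither difference was tested. *HLA-DPA1* entered the test only through its level in the isoform libraries, and without it 3 of 26 and 10 of 26 were called. By direction, 3 rose and 1 fell with TBX3iso1 beside 7.46% and 14.1% of all genes, and after quantile normalization 5 rose and 1 fell beside 9.83% and 10.3%. With TBX3iso2 6 rose and 5 fell beside 8.94% and 12.3%. The median log2 fold change of the 27 was -0.04 with TBX3iso1 and -0.16 with TBX3iso2, against -0.05 and 0.00 over all genes tested. Both comparisons share the EV libraries.

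**Figure D1:**
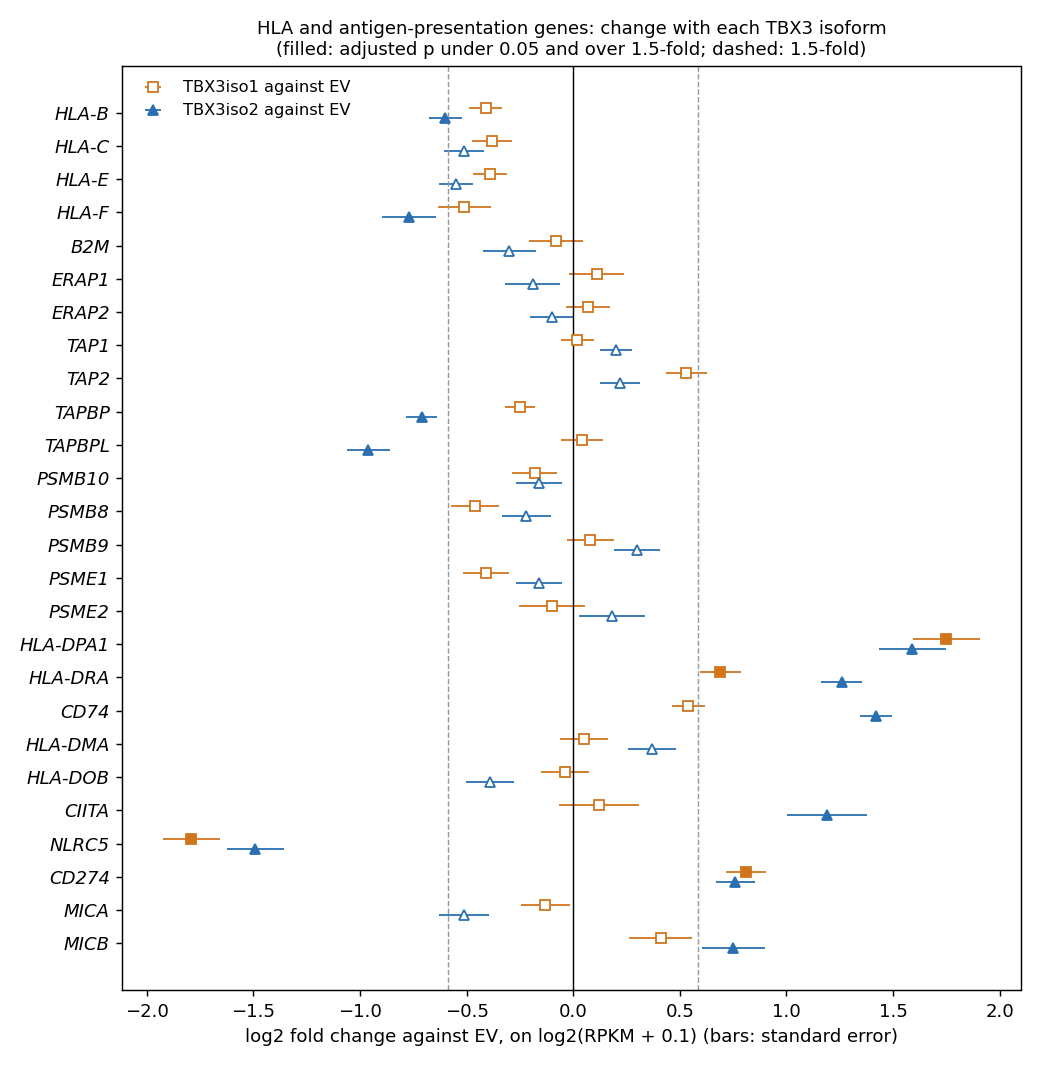
Log2 fold change against EV on the log2(RPKM + 0.1) scale (horizontal axis) of 26 tested genes (vertical axis) with TBX3iso1 and TBX3iso2; bars are standard errors, filled symbols passed adjusted p under 0.05 and 1.5-fold. *NLRC5* lies farthest to the left, at -1.79 and -1.49, and *HLA-DPA1* farthest to the right, at 1.75 and 1.59.

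The lowest value relative to EV was that of *NLRC5*, the class I transactivator (chr16:57023397-57117443, plus strand, in GRCh37 as all coordinates here). It was measured at 7.48 and 7.52 RPKM in EV, at 2.29 and 1.93 RPKM in TBX3iso1 and at 2.89 and 2.36 RPKM in TBX3iso2. Each isoform library was therefore below both EV libraries, and the means were 7.50 ± 0.028, 2.11 ± 0.252 and 2.62 ± 0.372 RPKM (SD, n = 2). *NLRC5* was 3.45-fold lower with TBX3iso1 (log2 fold change -1.79, SE 0.132, adjusted p = 6.17e-05, limma) and 2.80-fold lower with TBX3iso2 (-1.49, adjusted p = 0.000138, limma). The isoform lines did not differ by the test (TBX3iso2 minus TBX3iso1 0.30, SE 0.132, adjusted p = 0.17, limma).

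The classical heavy chains *HLA-B* and *HLA-C* present peptides to CD8+ T cells, *HLA-E* engages the inhibitory NK cell receptor NKG2A, and *HLA-F* and *HLA-G* are non-classical. *HLA-B* measured 49.8 and 49.8 RPKM in EV, 36.6 and 38.0 RPKM in TBX3iso1, and 31.0 and 34.5 RPKM in TBX3iso2. It was 1.52-fold lower with TBX3iso2 (log2 fold change -0.60, SE 0.0776, adjusted p = 0.000714, limma), just past the fold threshold, and 1.33-fold lower with TBX3iso1 (-0.41, adjusted p = 0.00418), which missed it. Without TBX3iso2 replicate 1 the TBX3iso2 value was -0.53 and the call was lost.

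*HLA-F* measured 2.20 and 2.21 RPKM in EV, 1.5 and 1.54 RPKM in TBX3iso1, and 1.16 and 1.34 RPKM in TBX3iso2. It fell 1.71-fold with TBX3iso2 (log2 fold change -0.77, adjusted p = 0.00219, limma), although a pseudocount of 1 RPKM brought this to -0.51, under the threshold. The TBX3iso1 value was -0.51 (SE 0.126, adjusted p = 0.0139, limma).

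*HLA-C* measured 69.2 and 67.9 RPKM in EV, 49.8 and 55.9 RPKM in TBX3iso1, and 44.9 and 51.5 RPKM in TBX3iso2. Its log2 fold changes of -0.38 (adjusted p = 0.0141, limma) and -0.51 (adjusted p = 0.00362, limma) were under the fold threshold, but the TBX3iso2 value passed it, at -0.61, both after quantile normalization and without TBX3iso2 replicate 2. *HLA-E* measured 19.3 and 18.7 RPKM in EV, 13.7 and 15.2 RPKM in TBX3iso1, and 12.8 and 13.0 RPKM in TBX3iso2. Its log2 fold changes were -0.39 (adjusted p = 0.00558, limma) and -0.55 (adjusted p = 0.00119, limma), the latter -0.59 and called after quantile normalization.

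*HLA-G* stayed under 0.03 RPKM in every library and was not tested. In *HLA-B*, *HLA-C*, *HLA-E* and *HLA-F*, every isoform library was below both EV libraries, as was the case for 44.1% and 37.2% of all genes tested in the comparisons of TBX3iso1 and TBX3iso2. Their median log2 fold changes were -0.40 and -0.58, and the adjusted p alone was under 0.05 for 4 of these 4 with TBX3iso1 (25.7% of all genes were lower by this rule) and 4 of 4 with TBX3iso2 (22.7%). None of the 4 changed direction against EV under any alternative tried, both rescalings included. Between the isoform lines 0 of the 4 were called by limma, where 6.29% of all genes tested were. At an unadjusted p under 0.05 1 of the 4 passed, and the share of all genes under that rule was not computed.

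The heavy chain genes are near copies of each other and highly polymorphic. The reads were aligned to hg19, and the sources do not say which HLA haplotypes the reference used held. The table also holds values far below 1 read, which means that reads with several alignments were shared out by an estimate. How the reads of one HLA gene were divided from those of another is thus uncertain, and the HLA alleles of 21NT are not given in the sources used here.

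**Figure D2:**
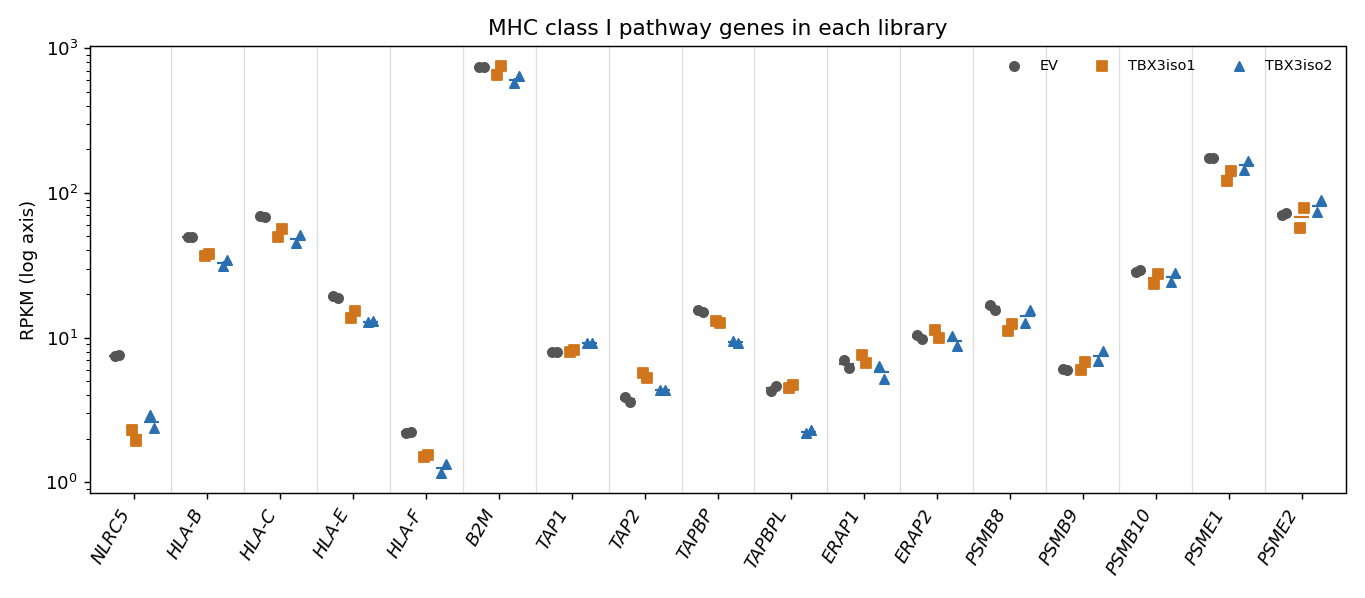
Levels in RPKM (log axis) of *NLRC5*, class I heavy chains, the light chain, loading factors, immunoproteasome and PA28 subunits (horizontal axis) in the 2 libraries of each line; points are libraries and short lines are means. *NLRC5* and the heavy chains *HLA-B*, *HLA-C*, *HLA-E* and *HLA-F* sit lower in all 4 isoform libraries than in EV, and *B2M* is above all others at 572 to 751 RPKM.

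The proximal promoters of class I genes are known for an interferon-stimulated response element beside a module of X and Y boxes on which NLRC5 acts through the RFX, CREB and NF-Y factors. To show these elements in the genes with a lower class I level, the 250 bases before the RefSeq start (RefSeq, GRCh38.p14 promoter table) are printed for *HLA-B* (chr6:31324957-31325206, minus strand), *HLA-F* (chr6:29690961-29691210, plus strand), *TAPBP* (chr6:33281856-33282105, minus strand) and, for the light chain, *B2M* (chr15:45003465-45003714, plus strand). The coordinates are GRCh37, where each sequence had 1 exact match. Capitals mark letters matching TTTCNNTT (the core of the interferon-stimulated response element), CCAAT (the Y box core) or TGACG (an X2 box core) on either strand.
HLA-B: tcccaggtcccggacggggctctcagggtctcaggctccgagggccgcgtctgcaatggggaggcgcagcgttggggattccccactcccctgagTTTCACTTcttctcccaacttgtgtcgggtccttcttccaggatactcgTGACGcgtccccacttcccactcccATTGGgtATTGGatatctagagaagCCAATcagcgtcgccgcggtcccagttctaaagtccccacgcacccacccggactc
HLA-F: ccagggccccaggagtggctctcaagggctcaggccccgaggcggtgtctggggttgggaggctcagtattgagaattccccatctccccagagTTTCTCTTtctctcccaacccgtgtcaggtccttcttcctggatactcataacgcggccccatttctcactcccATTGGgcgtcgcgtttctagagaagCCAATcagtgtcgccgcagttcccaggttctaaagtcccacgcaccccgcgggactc
TAPBP: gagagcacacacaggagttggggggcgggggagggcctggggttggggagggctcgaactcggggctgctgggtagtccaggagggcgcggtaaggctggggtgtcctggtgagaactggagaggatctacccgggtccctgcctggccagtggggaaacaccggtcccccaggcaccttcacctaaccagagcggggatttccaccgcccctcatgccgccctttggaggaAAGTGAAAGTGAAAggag
B2M: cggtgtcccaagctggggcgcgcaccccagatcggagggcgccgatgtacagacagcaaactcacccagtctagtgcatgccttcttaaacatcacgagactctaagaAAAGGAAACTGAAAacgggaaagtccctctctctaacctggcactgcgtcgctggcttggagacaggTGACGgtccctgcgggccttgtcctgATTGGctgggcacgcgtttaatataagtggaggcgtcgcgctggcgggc
*HLA-B* held all 3 motifs, its TTTCNNTT match starting at base 96, TGACG at base 145 and CCAAT matches at bases 170, 177 and 195. *HLA-F* held TTTCNNTT at base 95 and CCAAT at bases 169 and 194, with no TGACG letters in the window. *B2M* held all 3 motifs and *TAPBP* only TTTCNNTT, both with overlapping pairs of TTTCNNTT matches. A match is a description of letters, not a bound site. Promoters were in the table for 32 of the 39 genes, in 40 windows, and were not given for *NLRC5*, *CIITA*, *HLA-E* or *HLA-DRA*, among others. TTTCNNTT was found in 37.5% of the 40 windows and in 20.3% of all 34788 promoters of this length, CCAAT in 55% and 32.0%, and TGACG in 27.5% and 21.2%. GGTGTGA, the only letters searched here for the T-box element, was found in 1 of the 40 windows (2.5%) and in 2.77% of all promoters. The T-box motif that the paper reports within *SNAI2* does not contain these letters and was not searched for. These shares thus do not cover T-box elements with other letters.

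*B2M*, the light chain, measured 741 and 745 RPKM in EV, 658 and 751 RPKM in TBX3iso1, and 572 and 640 RPKM in TBX3iso2. The TBX3iso1 libraries overlapped with EV (log2 fold change -0.08, SE 0.125, adjusted p = 0.627, limma), and the TBX3iso2 libraries were lower, at -0.30 (adjusted p = 0.0886, limma, and 0.0292 with replicates as blocks). After quantile normalization the values were -0.28 (adjusted p = 0.00181, limma) and -0.49 (adjusted p = 0.00015, limma), all under the fold threshold.

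*TAP1* and *TAP2* encode the subunits of the peptide transporter. *TAP1* measured 7.97 and 7.95 RPKM in EV, 7.90 and 8.23 RPKM in TBX3iso1, and 9.19 and 9.12 RPKM in TBX3iso2, with log2 fold changes of 0.02 (adjusted p = 0.864, limma) and 0.20 (adjusted p = 0.0667, limma, and 0.0432 with replicates as blocks). *TAP2* measured 3.88 and 3.59 RPKM in EV, 5.65 and 5.23 RPKM in TBX3iso1, and 4.37 RPKM in both TBX3iso2 libraries. Its TBX3iso1 value of 0.53 (SE 0.0953, adjusted p = 0.00342, limma) was under the fold threshold. It passed the threshold after median-ratio scaling (0.58), after quantile normalization (0.70), and without EV replicate 1 or without TBX3iso1 replicate 2 (0.59 each).

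Tapasin, encoded by *TAPBP*, holds class I molecules at the transporter, and TAPBPR, encoded by *TAPBPL*, edits peptides away from it. *TAPBP* measured 15.5 and 15.1 RPKM in EV, 13.0 and 12.6 RPKM in TBX3iso1, and 9.41 and 9.23 RPKM in TBX3iso2. It fell 1.64-fold with TBX3iso2 (log2 fold change -0.71, SE 0.0721, adjusted p = 0.000251, limma), while the TBX3iso1 value was -0.25 (adjusted p = 0.024, limma). *TAPBPL* measured 4.27 and 4.64 RPKM in EV, 4.47 and 4.67 RPKM in TBX3iso1, and 2.19 and 2.28 RPKM in TBX3iso2. It fell 1.94-fold with TBX3iso2 (-0.96, adjusted p = 0.000268, limma), and its TBX3iso1 value was 0.04 (adjusted p = 0.769, limma). *ERAP1* and *ERAP2*, which trim peptides in the endoplasmic reticulum, ranged from 5.18 to 7.58 RPKM and from 8.73 to 11.2 RPKM, and neither was called. *ERAP1* was lower in both TBX3iso2 libraries (6.38 and 5.18 RPKM) than in both TBX3iso1 libraries (7.58 and 6.65 RPKM), with a difference of -0.30 (adjusted p = 0.162, limma, and 0.0262 with replicates as blocks).

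The general chaperones and transport factors of class I assembly were described by a list of 10 genes. With limma 0 of 10 were called in either comparison with EV, where 21.5% (TBX3iso1) and 21.2% (TBX3iso2) of all genes were. At an adjusted p under 0.05 at any fold, 0 were lower with TBX3iso1 and 3 with TBX3iso2, beside 25.7% and 22.7% of all genes. Calreticulin, *CALR*, measured 736 and 728 RPKM in EV and 514 and 561 RPKM in TBX3iso2 (log2 fold change -0.45, adjusted p = 0.0164, limma), and the disulfide isomerase *PDIA3* gave -0.33 (adjusted p = 0.0195, limma).

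Peptide supply was described through the immunoproteasome, whose catalytic subunits *PSMB8*, *PSMB9* and *PSMB10* replace *PSMB5*, *PSMB6* and *PSMB7* of the constitutive proteasome, and through the PA28 activator subunits *PSME1* and *PSME2*. With limma 0 of these 5 were called against EV, where 21.5% (TBX3iso1) and 21.2% (TBX3iso2) of all genes were. At an adjusted p under 0.05 at any fold, 2 were lower with TBX3iso1 and 0 with TBX3iso2, beside 25.7% and 22.7% of all genes. *PSMB8* measured 16.9 and 15.6 RPKM in EV, 11.1 and 12.4 RPKM in TBX3iso1, and 12.6 and 15.5 RPKM in TBX3iso2, and its TBX3iso1 value was -0.46 (SE 0.114, adjusted p = 0.0134, limma). *PSME1* measured 173 and 174 RPKM in EV, 121 and 142 RPKM in TBX3iso1, and 145 and 167 RPKM in TBX3iso2, with a TBX3iso1 value of -0.41 (adjusted p = 0.019, limma). *PSMB9* ranged from 5.96 to 8.05 RPKM, *PSMB10* from 23.5 to 29.3 RPKM and *PSME2* from 56.8 to 89.2 RPKM, and none had an adjusted p under 0.05 by limma, although that of *PSMB9* with TBX3iso2 (log2 fold change 0.30, adjusted p = 0.0563) was 0.0183 with replicates as blocks.

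Of 16 constitutive proteasome subunits, 2 rose with TBX3iso1, *PSMA7* (log2 fold change 0.85, adjusted p = 0.00151, limma) and *PSMB4* (0.71, adjusted p = 0.003, limma), and 1 rose with TBX3iso2, *PSMA2* (0.62, adjusted p = 0.00651, limma). These were 12.5% and 6.25% of the 16, where 7.46% and 8.94% of all genes were called higher. The medians over the 16 were 0.25 and 0.31, against -0.05 and 0.00 over all genes. Within a library, *PSMB8* over *PSMB5* was 0.11 and 0.103 in EV, 0.0721 and 0.0706 in TBX3iso1, and 0.0596 and 0.0628 in TBX3iso2. *PSMB10* over *PSMB7* was 0.212 and 0.214 in EV, and between 0.15 and 0.156 in the 4 isoform libraries. *PSMB9* over *PSMB6* was 0.0324 and 0.0318 in EV, 0.0289 and 0.0268 in TBX3iso1, and 0.0303 and 0.0296 in TBX3iso2. All 3 ratios were lower in each isoform library than in EV, with no test of the ratios. The denominators were higher by value, with log2 fold changes of 0.10 and 0.57 for *PSMB5*, 0.29 and 0.40 for *PSMB6* and 0.30 and 0.30 for *PSMB7*, while *PSMB9* itself was at 0.08 and 0.30. For *PSMB9* a lower ratio thus does not mean a lower level of the subunit. *PSMB8* (-0.46 and -0.22) and *PSMB10* (-0.18 and -0.16) were themselves lower by value. Of these, only *PSMB8* with TBX3iso1 had an adjusted p under 0.05 by limma.

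**Figure D3:**
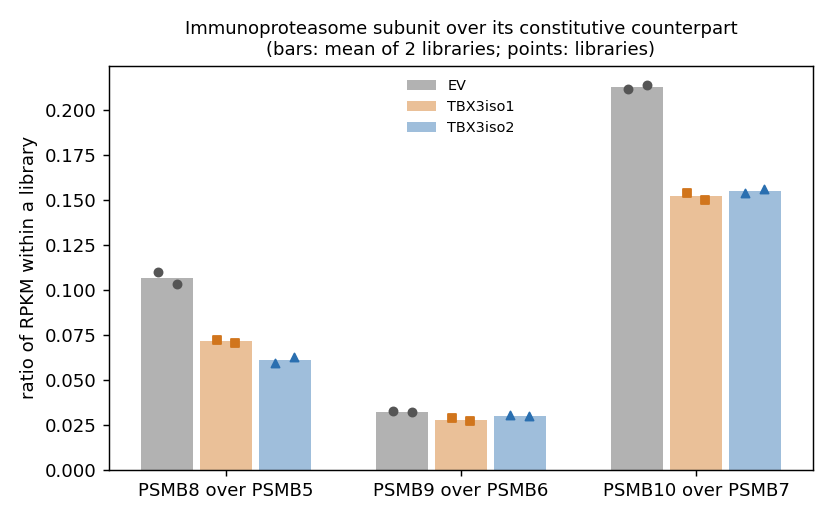
RPKM of each immunoproteasome subunit divided by that of its constitutive counterpart in the same library (vertical axis, linear from 0) for the 3 subunit pairs (horizontal axis); bars are means of 2 libraries and points are libraries. The *PSMB8* ratio is 0.103 to 0.11 in EV and 0.0596 to 0.0721 in the isoform lines.

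*CIITA*, the class II transactivator (chr16:10960079-11036878, plus strand), measured 0.846 and 0.878 RPKM in EV, 1.01 and 0.879 RPKM in TBX3iso1, and 2.52 and 1.74 RPKM in TBX3iso2. It rose 2.28-fold with TBX3iso2 (log2 fold change 1.19, SE 0.187, adjusted p = 0.00185, limma). The TBX3iso1 libraries lay just above EV (0.12, adjusted p = 0.633, limma).

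*CD74*, the invariant chain, measured 29.4 and 29.1 RPKM in EV, 40.6 and 44.8 RPKM in TBX3iso1, and 76.9 and 80.5 RPKM in TBX3iso2, so that the 3 lines were fully separated. It rose 2.68-fold with TBX3iso2 (log2 fold change 1.42, SE 0.0765, adjusted p = 1.59e-05, limma). With TBX3iso1 it was 1.46-fold higher (0.54, adjusted p = 0.00117, limma), under the fold threshold, which it passed after median-ratio scaling (0.60) and without TBX3iso1 replicate 1 (0.61).

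*HLA-DRA*, the nearly invariant alpha chain of HLA-DR, measured 4.32 and 4.13 RPKM in EV, 6.53 and 7.29 RPKM in TBX3iso1, and 9.76 and 10.7 RPKM in TBX3iso2. It rose with both isoforms, 1.62-fold with TBX3iso1 (log2 fold change 0.69, SE 0.0963, adjusted p = 0.00107, limma) and 2.39-fold with TBX3iso2 (1.26, adjusted p = 7.25e-05, limma). *HLA-DPA1*, the alpha chain of HLA-DP, measured 0.305 and 0.280 RPKM in EV, 1.23 and 1.2 RPKM in TBX3iso1, and 1.00 and 1.17 RPKM in TBX3iso2. It rose 3.36-fold (1.75, SE 0.156, adjusted p = 0.000145, limma) and 3.01-fold (1.59, adjusted p = 0.000223, limma). Its EV level was under the filter of 0.5 RPKM, so it was tested only because the isoform libraries were high.

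The ratio of *CD74* to *HLA-DRA* was 6.81 and 7.06 in EV, 6.22 and 6.14 in TBX3iso1, and 7.87 and 7.50 in TBX3iso2. *CD74* thus exceeded *HLA-DRA* per length in every library, by a ratio that varied less than either level. *HLA-DMA*, a chain of the peptide exchange factor HLA-DM, measured 2.76 and 2.56 RPKM in EV, 2.64 and 2.87 RPKM in TBX3iso1, and 3.30 and 3.63 RPKM in TBX3iso2, with a TBX3iso2 value of 0.37 (SE 0.111, adjusted p = 0.0277, limma) under the fold threshold. *HLA-DOB*, a chain of the HLA-DM inhibitor HLA-DO, measured 2.11 and 2.27 RPKM in EV, 2.11 and 2.13 RPKM in TBX3iso1, and 1.60 and 1.69 RPKM in TBX3iso2, with a TBX3iso2 value of -0.39 (adjusted p = 0.0261, limma).

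**Figure D4:**
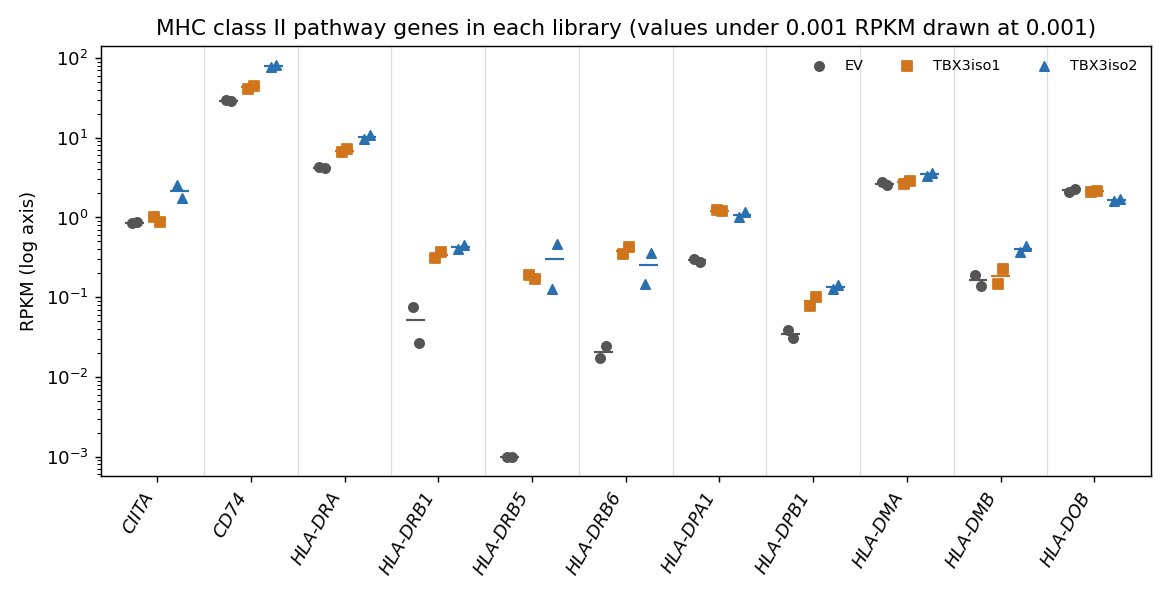
Levels in RPKM (log axis) of *CIITA* and class II genes (horizontal axis) in the 2 libraries of each line; points are libraries, short lines are means, and values under 0.001 RPKM are drawn at 0.001. *HLA-DRA* and *CD74* step up from EV to TBX3iso1 to TBX3iso2, and the beta chain *HLA-DRB1* stays under 0.5 RPKM throughout.

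The beta chains that complete a class II molecule were measured near the detection limit. *HLA-DRB1* was at 0.0757 and 0.0267 RPKM in EV, 0.306 and 0.367 RPKM in TBX3iso1, and 0.402 and 0.455 RPKM in TBX3iso2. Over its 1223-base transcript that amounts to about 5.05 and 1.41 alignments in EV and 19.1 to 25 in the isoform libraries. *HLA-DRB1* over *HLA-DRA* was 0.0175 and 0.00646 in EV and 0.0412 to 0.0503 in the isoform libraries, so the beta chain was measured far under its alpha chain in every line. The *HLA-DRB* genes are polymorphic near copies and which of them a haplotype carries varies, so reads from an allele unlike the reference may not have been counted.

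*HLA-DRB5* was listed at or near 0 in EV, at 0.191 and 0.168 RPKM in TBX3iso1, and at 0.127 and 0.471 RPKM in TBX3iso2. The pseudogene *HLA-DRB6* measured 0.0174 and 0.0243 RPKM in EV, 0.347 and 0.421 RPKM in TBX3iso1, and 0.146 and 0.359 RPKM in TBX3iso2. *HLA-DPB1*, the partner of *HLA-DPA1*, measured 0.0391 and 0.0307 RPKM in EV, 0.0786 and 0.0996 RPKM in TBX3iso1, and 0.128 and 0.143 RPKM in TBX3iso2. Of the 9 class II chains under the filter, 8 were above both EV libraries in both TBX3iso1 libraries and 8 in both TBX3iso2 libraries, as were 14.8% and 14.5% of the 8019 genes under the filter, several of the 9 at levels near 0. The exceptions were *HLA-DQB2*, which overlapped with EV in TBX3iso1, and *HLA-DQA1*, which was at 0.0377 and 0.0186 RPKM in EV and near 0 in TBX3iso2.

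*HLA-DMB* measured 0.189 and 0.137 RPKM in EV, 0.146 and 0.223 RPKM in TBX3iso1, and 0.371 and 0.436 RPKM in TBX3iso2. *HLA-DQA1*, *HLA-DQA2*, *HLA-DQB1*, *HLA-DQB2* and *HLA-DOA* did not exceed 0.0633 RPKM, and *HLA-DRB3* was also under the filter. In a fit with no filter on low values, *HLA-DRB1* (log2 fold changes 1.54 and 1.82) and *HLA-DRB6* (2.0 and 1.48) passed with both isoforms, and *HLA-DRB5* (1.85), *HLA-DPB1* (0.81) and *HLA-DMB* (0.94) with TBX3iso2. The genes nearest the filter were *HLA-DMB* and *HLA-DRB1*, averaging 0.25 and 0.272 RPKM over 6 libraries, below it, and *HLA-DPA1* and *CIITA*, averaging 0.864 and 1.31 RPKM, above it.

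In bulk RNA, more cells expressing a gene and more RNA per cell cannot be told apart. Of the 8 leukocyte markers, *PTPRC* was at or near 0 in every library, and the sum, almost all *CD14* and *CSF1R*, was 11.5 to 12.9 RPKM in EV and 3.73 to 4.49 RPKM over the isoform libraries. To show the same letters in class II genes, promoters are printed for *CD74* (chr5:149792474-149792723, minus strand), *HLA-DRB1* (chr6:32557626-32557875, minus strand) and *HLA-DPA1* (the downstream of its 2 listed starts, chr6:33041427-33041676, minus strand), with source, build, length and capitals as above.
CD74: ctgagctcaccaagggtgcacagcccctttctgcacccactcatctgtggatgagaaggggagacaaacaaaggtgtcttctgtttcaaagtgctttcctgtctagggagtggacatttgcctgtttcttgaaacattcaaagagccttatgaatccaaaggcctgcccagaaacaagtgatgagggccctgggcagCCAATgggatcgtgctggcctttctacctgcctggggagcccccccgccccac
HLA-DRB1: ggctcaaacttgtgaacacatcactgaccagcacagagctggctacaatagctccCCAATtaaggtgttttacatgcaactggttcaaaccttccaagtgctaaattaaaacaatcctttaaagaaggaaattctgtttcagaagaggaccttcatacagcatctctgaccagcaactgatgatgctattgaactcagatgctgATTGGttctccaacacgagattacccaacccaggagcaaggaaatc
HLA-DPA1: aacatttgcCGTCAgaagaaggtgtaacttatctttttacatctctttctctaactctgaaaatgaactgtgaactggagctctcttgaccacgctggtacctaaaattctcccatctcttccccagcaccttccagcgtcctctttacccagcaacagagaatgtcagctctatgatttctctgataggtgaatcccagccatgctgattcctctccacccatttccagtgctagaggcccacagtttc
*CD74* held CCAAT at base 198 and *HLA-DRB1* at bases 56 and 205, and neither window held TTTCNNTT or TGACG. *HLA-DPA1* held TGACG at base 10 and no other of the 3 motifs.

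The 3 ligands act on lymphocyte receptors rather than presenting peptide. *CD274* encodes PD-L1, the ligand of the inhibitory receptor PD-1, and *MICA* and *MICB* encode stress-induced ligands of the activating receptor NKG2D. *CD274* (chr9:5450503-5470566, plus strand) measured 5.40 and 5.10 RPKM in EV, 9.28 and 9.25 RPKM in TBX3iso1, and 9.54 and 8.40 RPKM in TBX3iso2. It rose 1.75-fold with TBX3iso1 (log2 fold change 0.81, SE 0.092, adjusted p = 0.000443, limma) and 1.69-fold with TBX3iso2 (0.76, adjusted p = 0.000553, limma), with overlapping isoform lines (TBX3iso2 minus TBX3iso1 -0.05, adjusted p = 0.773, limma). Its promoter (chr9:5450292-5450541, plus strand), shown for comparison with the class I promoters and with the same source and capitals, held 4 TTTCNNTT matches, 3 of them overlapping.
CD274: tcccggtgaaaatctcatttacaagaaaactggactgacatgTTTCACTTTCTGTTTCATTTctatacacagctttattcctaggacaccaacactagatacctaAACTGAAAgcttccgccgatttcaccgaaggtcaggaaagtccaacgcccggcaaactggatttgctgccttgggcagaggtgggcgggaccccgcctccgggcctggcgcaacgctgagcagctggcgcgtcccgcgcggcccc

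*MICB* measured 1.08 and 0.874 RPKM in EV, 1.40 and 1.26 RPKM in TBX3iso1, and 1.73 and 1.68 RPKM in TBX3iso2. It rose 1.68-fold with TBX3iso2 (log2 fold change 0.75, SE 0.148, adjusted p = 0.00509, limma), a call lost with a pseudocount of 1 RPKM (0.45) and without EV replicate 2 (0.61, adjusted p = 0.0509). Its TBX3iso1 value was 0.41 (adjusted p = 0.0538, limma, and 0.0279 with replicates as blocks), and 0.62 and called after quantile normalization. *MICA* measured 3.00 and 3.04 RPKM in EV, 2.67 and 2.82 RPKM in TBX3iso1, and 2.27 and 1.93 RPKM in TBX3iso2. The TBX3iso2 value was -0.51 (SE 0.117, adjusted p = 0.01, limma), under the fold threshold, and -0.62 and called without TBX3iso2 replicate 1. The values of these paralogs thus lay on opposite sides of EV.

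Of 6 other NKG2D ligands 4 were tested, and 1 (25%), *ULBP3*, rose with both isoforms, beside 7.46% and 8.94% of all genes. It measured 3.68 and 3.12 RPKM in EV, 7.12 and 6.71 RPKM in TBX3iso1, and 5.37 and 5.69 RPKM in TBX3iso2 (log2 fold changes 1.01, adjusted p = 0.000315, and 0.69, adjusted p = 0.00172, limma). Of 13 other checkpoint ligands and receptors 7 were tested. By limma 1 (14.3%) rose with TBX3iso1 and 0 were called with TBX3iso2, beside 21.5% and 21.2% of all genes called. At an adjusted p under 0.05 at any fold, 0 were lower with TBX3iso1 and 1 with TBX3iso2, beside 25.7% and 22.7% of all genes. By that rule 4 were higher with TBX3iso1 and 1 with TBX3iso2, but the share of all genes higher is not given here. The medians over the 7 were 0.25 and 0.01, against -0.05 and 0.00 over all genes. The gene called with TBX3iso1 was *PDCD1LG2*, which encodes the second PD-1 ligand and lies beside *CD274*. It measured 1.09 and 0.972 RPKM in EV, 2.95 and 2.84 RPKM in TBX3iso1, and 1.49 and 1.28 RPKM in TBX3iso2. Its log2 fold changes were 1.40 (adjusted p = 0.000188, limma) and 0.39 (adjusted p = 0.0448, limma).

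Between the isoform lines, 3 of the 27 genes were called (11.1%), where 6.29% of all genes were. *CIITA* was 2.1-fold higher in TBX3iso2 than in TBX3iso1 (log2 difference 1.07, SE 0.187, adjusted p = 0.0101, limma), although its adjusted p was 0.0538 with no filter on low values and 0.116 with unmoderated variances. *CD74* was 1.84-fold higher (0.88, SE 0.0765, adjusted p = 0.000637, limma). *TAPBPL* was 2.0-fold lower (-1.0, SE 0.0992, adjusted p = 0.00115, limma). *HLA-DRA* was 1.48-fold higher (0.56, adjusted p = 0.00939, limma), just under the threshold, and passed it without TBX3iso1 replicate 2 (0.64) or without TBX3iso2 replicate 1 (0.63). *TAPBP* was lower by value, at -0.46 (adjusted p = 0.00689, limma), also under the threshold. By direction, 2 were higher and 1 lower, beside 3.47% and 2.82% of all genes, or 2.69% and 3.49% after median-ratio scaling.

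**Figure D5:**
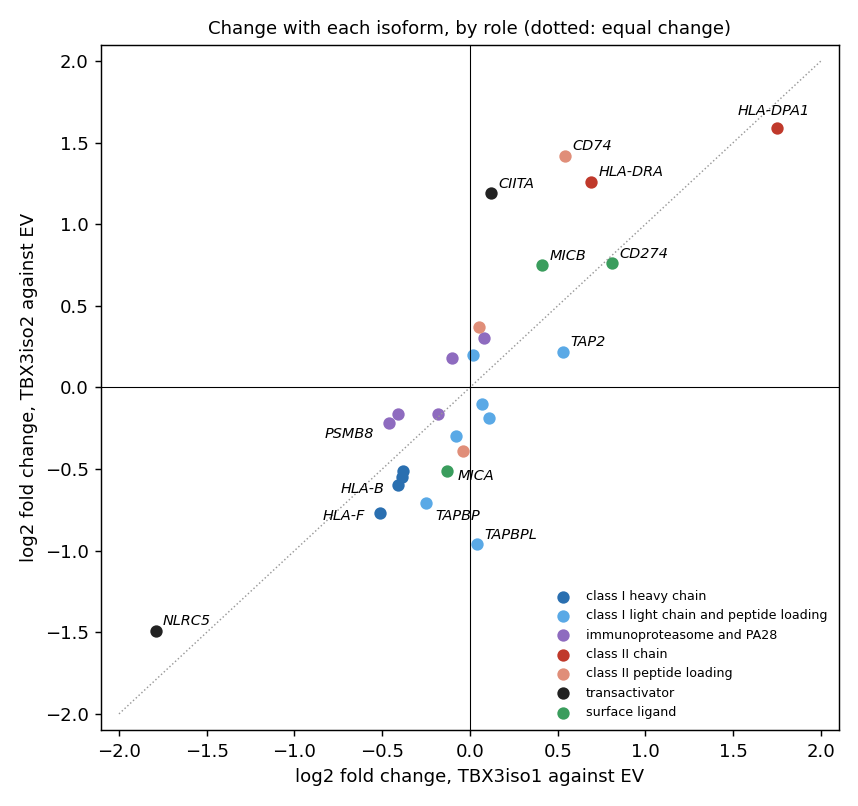
Log2 fold change with TBX3iso2 (vertical axis) against that with TBX3iso1 (horizontal axis), both relative to the same EV libraries, for 26 tested genes coloured by role; the dotted line marks equal change. *TAPBPL* (0.04 and -0.96), *CIITA* (0.12 and 1.19) and *CD74* (0.54 and 1.42) lie off the line, and *NLRC5* (-1.79 and -1.49) lies near its lower end.

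Of 21 regulators of HLA transcription tested, 2 fell and 0 rose by limma in each comparison with EV. The called share was 9.52% in each, under the 21.5% (TBX3iso1) and 21.2% (TBX3iso2) of all genes. At an adjusted p under 0.05 at any fold, 4 were lower with TBX3iso1 and 3 with TBX3iso2, beside 25.7% and 22.7% of all genes. By the same rule 2 and 6 were higher, but the share of all genes higher by it is not given here. The medians over the 21 were 0.04 and 0.08, against -0.05 and 0.00 over all genes. *IRF2*, an interferon regulatory factor known to sustain class I pathway transcription, measured 10.8 and 9.54 RPKM in EV, 5.03 and 5.25 RPKM in TBX3iso1, and 6.46 and 5.89 RPKM in TBX3iso2 (log2 fold changes -0.97, adjusted p = 0.000257, and -0.71, adjusted p = 0.00101, limma). *IRF9*, which joins the STAT proteins in the type I interferon response, fell with TBX3iso1 (-0.64, adjusted p = 0.000737, limma). *IFNGR1*, a chain of the interferon gamma receptor, fell with TBX3iso2 (-0.59, adjusted p = 0.000697, limma).

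*IRF1*, which activates *CIITA* and *CD274* in the interferon gamma response, measured 13.0 and 12.7 RPKM in EV, 10.7 and 11.7 RPKM in TBX3iso1, and 18.5 and 14.8 RPKM in TBX3iso2. Its values of -0.19 (adjusted p = 0.192, limma) and 0.37 (adjusted p = 0.0314, limma) were under the fold threshold. *RFX5*, a subunit of the X box complex, gave 0.40 (adjusted p = 0.0107, limma) and 0.28 (adjusted p = 0.0434, limma). *EZH2*, a histone methyltransferase, gave 0.11 and 0.24. Of 10 interferon and TNF ligand symbols 5 were in the table, *IFNB1*, *IFNL1*, *IFNL2*, *IFNL3* and *TNF*. *IFNG*, which encodes interferon gamma, was not among them, so its level is not known. None of the 5 reached the filter, the highest value being 0.228 RPKM for *TNF* in a TBX3iso2 library.

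Among 10 class II pathway enzymes and ubiquitin ligases, 9 were in the table and 7 tested. Of the 7, 1 (14.3%) fell with both isoforms, beside 14.1% and 12.3% of all genes, namely the endosomal protease *CTSD*. It measured 1140 and 1110 RPKM in EV, 518 and 550 RPKM in TBX3iso1, and 460 and 512 RPKM in TBX3iso2 (log2 fold changes -1.07, adjusted p = 0.000343, and -1.21, adjusted p = 0.000198, limma). *CTSS*, the protease that processes the invariant chain in antigen-presenting cells, was too low to test, between 0.0178 and 0.282 RPKM. Of 6 cytosolic peptidases 1 (16.7%) rose, *BLMH* with TBX3iso2 (0.64, adjusted p = 0.00152, limma), beside 8.94% of all genes.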

How the data were processed

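Total mRNA of 21NT cells carrying EV, TBX3iso1 or TBX3iso2 was measured in 2 libraries per line. The authors aligned stranded paired-end reads to hg19 with TopHat in Galaxy, allowing several alignments per read, and deposited RPKM values per gene computed in Partek Genomics Suite. Versions and the gene annotation are not given in the sources used here, and multi-mapped reads may be misassigned among HLA paralogs. RPKM carries no counts, so no count model was used. Gene positions are from GENCODE (GRCh37).

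RPKM was tested as log2(RPKM + 0.1) with limma 3.58.1 (R 4.3.3, empirical Bayes with trend), with 1 mean per line over 6 libraries, for 12805 of 20824 genes averaging at least 0.5 RPKM. Benjamini-Hochberg adjustment ran over all of them, and a call needed adjusted p under 0.05 and over 1.5-fold. Fold changes on this scale understate those of low genes. Alternatives were other pseudocounts, filters, scalings, unmoderated variances, a replicate block and leaving out each library.

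Replicate differences (replicate 1 minus 2) correlated between lines over genes (r = 0.22 for EV and TBX3iso1, 0.114 for EV and TBX3iso2, 0.499 for TBX3iso1 and TBX3iso2). No label states a shared batch, and the main fit used no pairing. Equal numbers were paired, on the data alone, only in the replicate block. Genes and lists were chosen with earlier results of these data known. One tested gene chosen by symbol is not reported here by itself and enters only counts and medians over the whole set. The others are reported, and of other lists those called against EV and a few stated regulators and markers.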

Additional observations from a re-analysis of the deposited data

Results flagged for a closer look

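Of the 27 genes tested, 3 (11.1%) differed between the isoform lines by a direct test of the difference (limma, adjusted p under 0.05 and over 1.5-fold). Of all genes tested, 6.29% did. *CIITA* was higher in TBX3iso2 than in TBX3iso1 by 1.07 on the log2 scale, *CD74* was higher by 0.88, and *TAPBPL* differed by -1.0, being lower in TBX3iso2. The causes were not tested.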

How the results depend on the processing

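For the log2 fold changes of single genes, 1001 values under alternatives kept their direction and side of the threshold, 13 newly passed it, 6 no longer passed and 18 changed sign. With TBX3iso1, the changes of sign were *HLA-DOB* after median-ratio scaling (0.01) and quantile normalization (0.17) and *MICA* after quantile normalization (0.07). Between the isoform lines *PSMB10* was -0.03 after both scalings. Leaving out 1 library took these to both sides of 0, from lowest to highest with TBX3iso1: *TAPBPL* -0.02 to 0.10, *HLA-DMA* -0.01 to 0.11, *HLA-DOB* -0.09 to 0.01, *B2M* -0.17 to 0.02, *ERAP2* -0.02 to 0.15, *PSME2* -0.33 to 0.14, *PSMB9* -0.01 to 0.17 and *TAP1* -0.01 to 0.05. The same held for *ERAP2* with TBX3iso2 (-0.21 to 0.01) and, between the isoform lines, for *PSMB10* (-0.09 to 0.14) and *CD274* (-0.14 to 0.04). No gene called in a comparison changed sign there under any of these alternatives. The number called with TBX3iso2 was 7 of 22 with a filter at 2 RPKM, where fewer genes were tested (18.4% of all genes called), and 16 of 39 with no filter (16.3% of all genes). The median log2 fold change over the genes tested was 0.06 (no filter) and 0.13 (quantile normalization) with TBX3iso1, and 0.17 (no filter) with TBX3iso2. Between the isoform lines it was -0.09 (pseudocount 1 RPKM or a filter at 2 RPKM), 0.08 (no filter) and -0.19 (median-ratio scaling). Leaving out 1 library gave medians from -0.08 to 0.01 with TBX3iso1, -0.26 to -0.07 with TBX3iso2 and -0.09 to -0.05 between the isoform lines, and the numbers called were 4 to 5, 10 to 12 and 3 to 4. A line left with 1 library is assumed to vary like the others. The replicate block left the numbers called at 4, 11 and 3 and changed no call of these genes. It brought the adjusted p under 0.05, without the fold, for *MICB* with TBX3iso1, for *B2M*, *TAP1* and *PSMB9* with TBX3iso2, and between the isoform lines for *ERAP1*, *TAP2* (0.07 to 0.0329) and *MICA* (0.0735 to 0.0433). Over all genes, a pseudocount of 1 RPKM reduced the number called with TBX3iso1 from 2757 to 1812 and between the isoform lines from 805 to 419, and unmoderated variances gave 199 for the latter. The causes of these shifts were not tested. RPKM without counts gives no depth-based interval, and 12 of the 39 genes were too low to test.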
